A study of Rattus norvegicus with 20 samples.

Results

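The cytosolic aminoacyl-tRNA synthetases were followed through celecoxib treatment of neonatal rat heart cultures. The rule took every non-control probe whose gene name in the files is Aars, Cars, Eprs, Gars, Mars, Nars, Sars, Tars, Wars or Yars. It found probes for 9 of the 10 genes, 11 of the 41012 probes on the array, with 2 probes each for Nars and Wars and none for Mars. RNA of primary cultures of neonatal rat heart, grown for 1 day, was hybridised to single-colour microarrays. Celecoxib, an inhibitor of the inducible cyclo-oxygenase, was given at relative concentrations of 1/25, 1/5 and 1 for 6 h or for 24 h, which made 6 groups of 3 arrays each. The untreated group had 2 arrays, for which the labels state neither a vehicle nor a time, so it is matched to neither time of treatment. The labels give no absolute concentration and do not say whether replicates came from separate cultures, so p-values measure the spread between these arrays only, which may be technical.

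Each of these enzymes joins an amino acid to its tRNAs, so that ribosomes in the cytosol can use it. Eprs and Mars sit in the multi-synthetase complex, and the Gars gene also supplies the mitochondrial enzyme. In human and mouse cells, ATF4, the transcription factor of the integrated stress response, raises the RNA of many synthetases when amino acids run short or the endoplasmic reticulum is stressed. ATF4 binds with C/EBP partners to a composite element whose core is TTGCATCA.

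The core is shown where it occurs in the members' promoters, as a feature that the rule did not use. The members are a chosen part of the cytosolic synthetases, so the shares below describe these genes only and were not tested. RefSeq (build GRCr8) gives a window of 250 bases before to 50 after the start for 9 of the 10 genes, Gars1 having none in the table, under the current symbols that end in 1. The core (TTGCATCA, or TGATGCAA on the other strand) was in 6 of these 9 windows, or 66.7%, in 1 of 9 windows of the other cytosolic synthetases (11.1%), in 0 of 18 of the mitochondrial synthetases, and in 266 of all 33469 windows (0.795%). For the members, 5 stretches of 30 bases are shown, written 5′ to 3′ on the strand of the gene, with the core in capitals.
Cars1: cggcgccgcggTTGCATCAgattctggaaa
Mars1: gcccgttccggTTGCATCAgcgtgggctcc
Nars1: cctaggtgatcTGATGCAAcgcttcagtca
Tars1: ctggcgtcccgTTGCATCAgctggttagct
Yars1: cggagctacgagctcagcTGATGCAAcctg
The core began 17 bases before the start in Mars1 (chr7:65023752-65023781, minus strand), 14 before in Nars1 (chr18:60275778-60275807, minus strand) and 27 before in Tars1 (chr2:62114811-62114840, minus strand). In Cars1 (chr1:208225334-208225363, minus strand) and Yars1 (chr5:146820183-146820212, plus strand) it lay downstream, from base 18 and base 39 of the transcript. The windows of Eprs1, Sars1 and Wars1 did not hold these letters. A match is a run of letters and no measured binding.

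Before the results, 3 properties of the arrays bear on every comparison. The arrays were scanned on 2 days: day 1 held the 24 h arrays and the untreated ones, day 2 held celecoxib 1/5 for 6 h, and celecoxib 1 and 1/25 for 6 h were split between both. They lay on 6 slides, with a correlation within slides of 0.345. Slides 1 to 4 were scanned on day 1 and slides 5 and 6 on day 2. Both untreated arrays lay on slide 1, beside arrays of celecoxib 1 for 6 h. No other celecoxib group shared a slide with untreated cultures. Untreated replicate 1 had a 75th percentile only 4.07 times its median signal, the lowest ratio of the 20, the next being 4.96. Celecoxib 1/25 for 6 h replicate 3 had the highest, 6.998, but replicate 1 of its group was close, at 6.772. These extremes are called below the arrays that stood apart, although the highest only ends a continuous range. Well above background were 63.5% to 83.1% of probes per array. Each of the 10 cardiomyocyte markers stood well above background on every array, and their summed signal ran from 22.4 to 60.4 times the 75th percentile on celecoxib arrays, a range within which both untreated arrays fell. Of the fibroblast markers 5 of 7 were well above background throughout. The summed macrophage and leukocyte markers were lower on every celecoxib array (1.61 to 3.45) than on the untreated arrays (3.61 to 4.10), with Itgam well above background on none, and their part in the results was not tested. In bulk samples, fewer cells of a type and less RNA per cell cannot be told apart.

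The 9 synthetases with a probe were measurable throughout: the probe that stands for each was well above background on all 20 arrays, and only that of Nars was saturated, on 1 array. Values are log2 signals relative to the 75th percentile of the array. Over the 20 arrays, Wars, the tryptophan enzyme, spread most widely, from -3.44 to 0.02 with a median of -1.46. Both ends of that range are the arrays that stood apart, celecoxib 1/25 for 6 h replicate 3 and untreated replicate 1. Eprs, which charges both glutamate and proline tRNAs, spread least, from 0.66 to 1.97 with a median of 1.48. Among the 9 arrays of 24 h the distance from lowest to highest ran from 0.66 for Eprs to 1.87 for Wars.

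**Figure D1:**
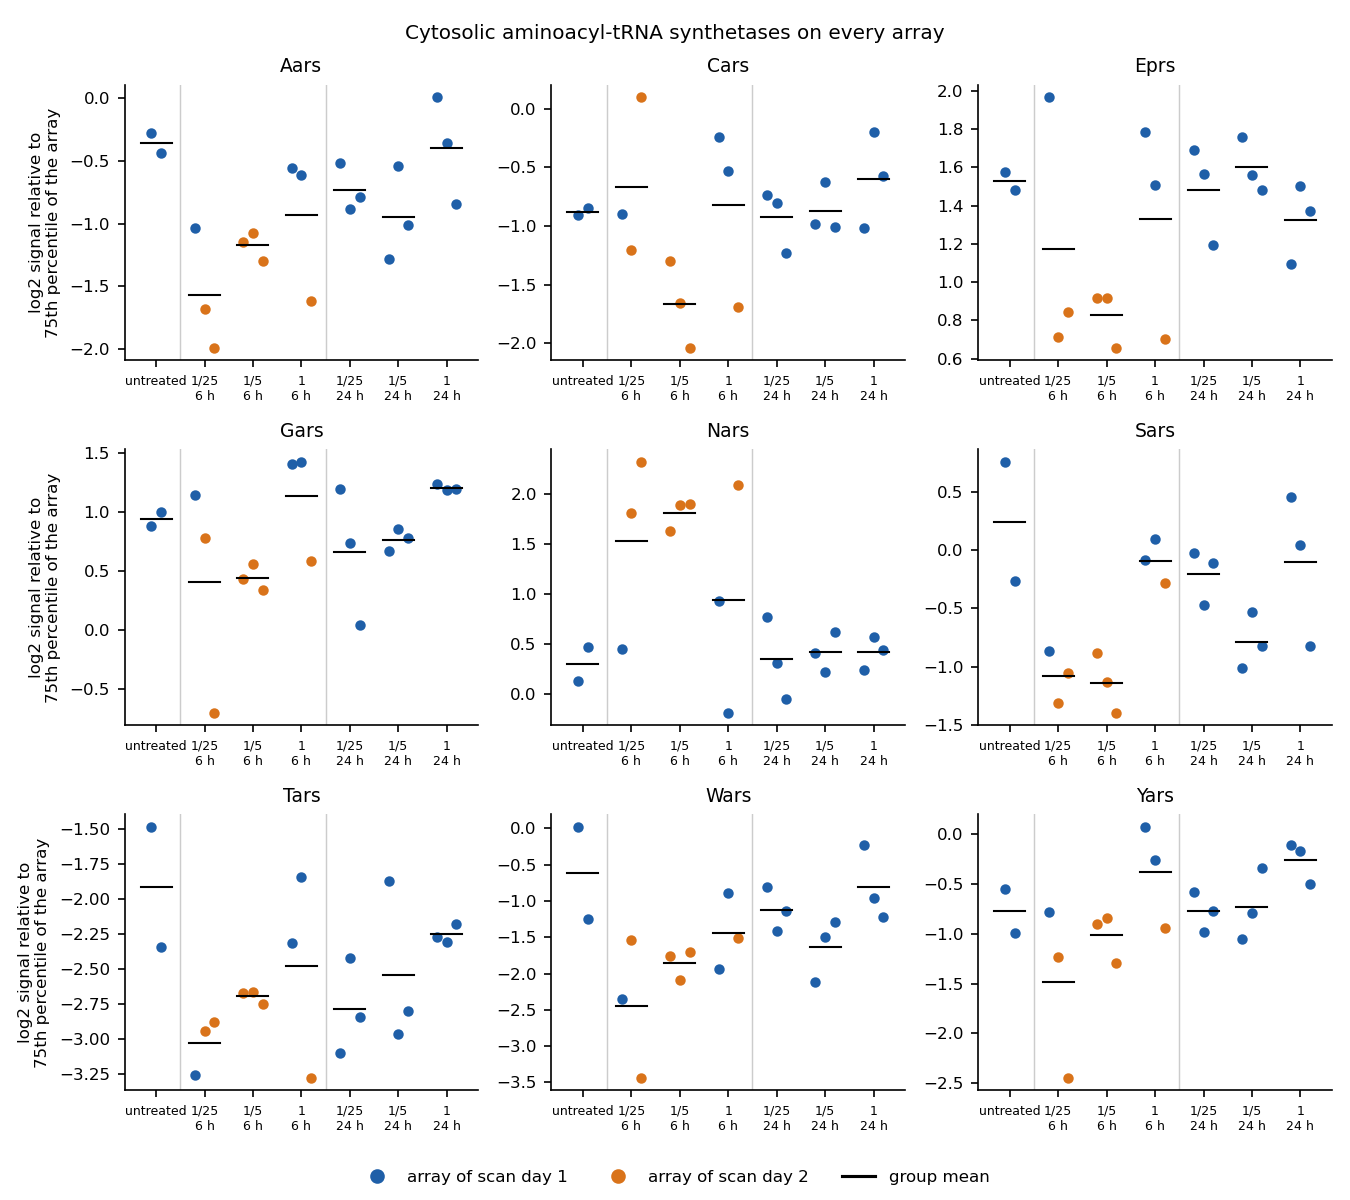
Log2 signal relative to the 75th percentile of the array (vertical axis, scaled per gene) for the 9 synthetases in untreated cultures and at celecoxib 1/25, 1/5 and 1 for 6 h and 24 h. Each point is an array, coloured by scan day, and each line is a group mean. For Nars, the 6 points of scan day 2 lie between 1.63 and 2.32, while those of scan day 1 reach 0.93 at most.

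After 6 h, Sars read lower at celecoxib 1/25 and 1/5, and Wars at 1/25, than in untreated cultures, which lay on another slide. Treatment cannot be told apart from slide here. With slide as a random block in limma, none of these differences passed. The adjusted p was then 0.197 for Sars at 1/25, 0.344 for Sars at 1/5 and 0.197 for Wars at 1/25. Sars, which charges serine tRNA, read -0.87, -1.31 and -1.06 at celecoxib 1/25 for 6 h, against 0.76 and -0.27 in untreated cultures. It read -0.88, -1.13 and -1.40 at celecoxib 1/5 for 6 h. Every array of both groups was below both untreated arrays, which themselves lay far apart. The difference was -1.32 ± 0.36 at 1/25 (SE, 3 arrays against 2; 0.40-fold; limma adjusted p = 0.0446) and -1.38 ± 0.36 at 1/5 (0.38-fold; adjusted p = 0.036). Wars read -2.35, -1.54 and -3.44 at celecoxib 1/25 for 6 h, against 0.02 and -1.25 in untreated cultures. The groups did not overlap, although both were wide, and Wars differed by -1.82 ± 0.50 on the log2 scale (0.28-fold; adjusted p = 0.0443). At 1/5 for 6 h Wars read -1.75, -2.10 and -1.70, which were also below untreated, with a difference of -1.23 ± 0.50 (adjusted p = 0.141).

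The Wars probes are shown because the Wars call rests on one of them. Each has 60 bases, written 5′ to 3′, with positions on build rn3 as the files give them.
Wars probe: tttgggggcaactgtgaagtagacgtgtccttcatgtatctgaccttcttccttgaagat
Wars other probe: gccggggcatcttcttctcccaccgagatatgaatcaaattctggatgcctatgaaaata
The Wars probe maps to chr6:133209938-133209997. The other Wars probe maps to chr6:133220167-133224813, both on the minus strand. The span of the other Wars probe is longer than the probe itself. The other Wars probe, which was dimmer, was well above background on 17 arrays and had a value on 18. It gave -0.68 ± 0.51 at 1/25 and -0.26 ± 0.51 at 1/5 for 6 h against untreated (adjusted p = 0.393 and 0.798, over all probes). The signs of the 2 Wars probes were the same in 6 of 6 comparisons with untreated, with r = 0.54 over the 18 arrays that they share.

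In all, 2 of 9 members passed at celecoxib 1/25 for 6 h against untreated, both lower, where 5.99% of 27735 genes passed and 3.75% passed lower. At 1/5 for 6 h 1 of 9 passed, lower, where 6.55% of 27734 genes passed and 2.13% passed lower. An unadjusted p under 0.05 was found for 5 members at 1/25 (29.1% of all genes) and 4 at 1/5 (24.1%). Without untreated replicate 1, Sars differed by -0.81 at 1/25 (adjusted p = 0.484) and by -0.87 at 1/5 (0.372), and Wars by -1.19 at 1/25 (0.463). The untreated group is then 1 array, here and wherever that array is left out, and its spread is assumed to be that of the other groups. Without both arrays that stood apart, the differences at 1/25 were -0.82 for Sars (0.69) and -0.69 for Wars (0.808). With scan day as a block, Sars differed by -1.12 at 1/25 (0.0809) and by -1.08 at 1/5 (0.218), and Wars by -1.75 at 1/25 (0.0674). Within scan day 1, where 1/25 for 6 h has 1 array and so no spread of its own, the differences at 1/25 were -1.11 for Sars and -1.74 for Wars.

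The other members were read beside these. Aars, the alanine enzyme, read -1.04, -1.68 and -1.99 at celecoxib 1/25 for 6 h, against -0.28 and -0.44 in untreated cultures. The groups did not overlap, and the difference was -1.21 ± 0.37 (adjusted p = 0.0561). Tars, the threonine enzyme, read -3.26, -2.94 and -2.88 at 1/25 for 6 h, against -1.48 and -2.34 in untreated cultures. These did not overlap either, with a difference of -1.11 ± 0.40 (adjusted p = 0.0876). Without untreated replicate 1 the differences were -1.13 for Aars (adjusted p = 0.391) and -0.68 for Tars (0.617). With scan day as a block the Aars difference at 1/25 was -0.60 (0.18), while that of Tars was -0.83 (0.202).

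At 1/5 for 6 h, 7 of 9 members lay wholly below untreated and 1 wholly above, where 31.5% and 20% of all genes did. At 1/25 for 6 h, 4 of 9 lay wholly below and 0 wholly above, where 19.3% and 10.4% of all genes did. The member median was -0.72 at 1/25 and -0.78 at 1/5, against -0.18 and -0.19 over all genes. All 3 arrays at 1/5 for 6 h and 2 of 3 at 1/25 were scanned on day 2, and both untreated arrays on day 1. At 1/5, treatment and scan day cannot be told apart in these counts and medians. The counts of members wholly below or above were not taken again with scan day as a block. With scan day as a block, the member median was -0.08 at 1/25 and -0.16 at 1/5, against -0.10 and -0.01 over all genes. At 1/5, 5 of 9 members were then below 0, against 8 of 9 without the block: Aars (0.10), Eprs (0.37), Gars (0.47) and Yars (0.71) turned positive and Nars (-0.16) turned negative. At 1/25 Eprs (0.36) and Gars (0.11) turned positive, and 5 of 9 were below 0, against 7 of 9 without the block. The day term at 1/5 is estimated from other groups, since no array at 1/5 for 6 h was scanned on day 1.

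Cars, Gars and Yars show how far the arrays of one group can lie apart. Cars, the cysteine enzyme, read -0.90, -1.21 and 0.10 at celecoxib 1/25 for 6 h, against -0.91 and -0.85 in untreated cultures, with 1 array above and 1 below both. At 1/5 for 6 h it read -1.30, -1.66 and -2.04, all below untreated, with a difference of -0.79 ± 0.43 (adjusted p = 0.273). Gars read 1.14, 0.78 and -0.70 at 1/25 for 6 h, against 0.88 and 1.00 in untreated cultures. Its lowest array is replicate 3, which stood apart, and the difference was -0.53 ± 0.43 (adjusted p = 0.441). Yars read -0.78, -1.23 and -2.45 at 1/25 for 6 h, against -0.55 and -0.99 in untreated cultures, and again replicate 3 was the lowest. The groups overlapped, with -0.72 ± 0.41 (adjusted p = 0.255).

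At celecoxib 1 for 6 h no member passed against untreated. Sars read -0.08, 0.10 and -0.28 at celecoxib 1 for 6 h, against 0.76 and -0.27 in untreated cultures, and the groups overlapped. By limma 0 of 9 members passed against untreated and 0 had an unadjusted p under 0.05, while 0.429% of 27733 genes passed and 18.5% had such a p. Aars was the 1 member wholly below untreated and none lay wholly above, where 17% and 10.2% of all genes did. On slide 1 alone, which holds 2 arrays of each group, the 9 differences ran from -0.80 for Wars to 0.68 for Yars, the tyrosine enzyme.

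**Figure D2:**
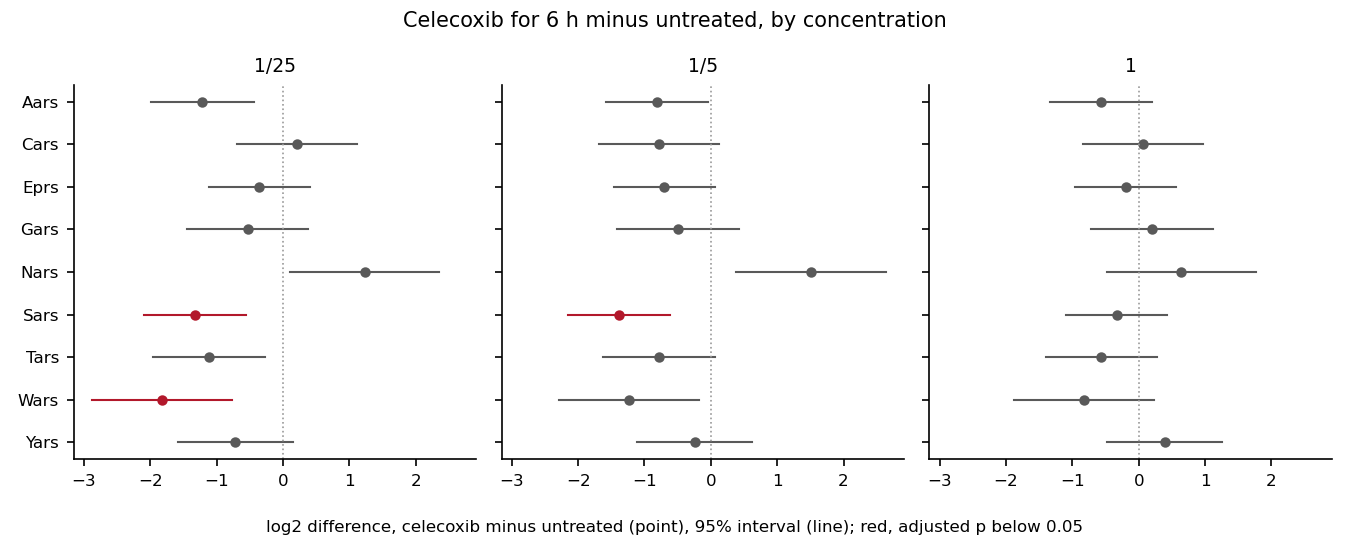
Log2 difference of celecoxib for 6 h minus untreated (horizontal axis) for the 9 synthetases at 1/25, 1/5 and 1. Points are limma estimates, lines are 95% intervals, and red marks an adjusted p below 0.05: Sars and Wars at 1/25 and Sars at 1/5, all below 0, while at 1 every interval includes 0.

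The concentrations were compared at 6 h, celecoxib 1 against 1/25. Yars read 0.07, -0.26 and -0.94 at 1, against -0.78, -1.23 and -2.45 at 1/25. The groups overlapped in 1 array of each, with a difference of 1.11 ± 0.37 (2.16-fold; adjusted p = 0.778). Sars was the 1 member wholly higher at 1, by 0.99 ± 0.33 (adjusted p = 0.778), and none was wholly lower, where 2.85% and 1.38% of all genes were. By limma 0 of 9 members passed and 3 had an unadjusted p under 0.05 (Sars, Wars and Yars), while 0% of 27740 genes passed and 6.3% had such a p. The member median was 0.64, against 0.06 over all genes, and 7 of 9 were above 0. The scan day block brought that median to 0.41, with 6 of 9 above 0. On scan day 2 alone, with 1 array at 1 on slide 5 and 2 at 1/25 on slide 6, the member median was 0.21. Sars (0.90), Wars (0.98) and Yars (0.90) were higher at 1. There Wars read -1.51 at 1, against -1.54 and -3.44 at 1/25, and Yars -0.94, against -1.23 and -2.45. For both genes the lowest was replicate 3 at 1/25, which stood apart. Sars read -0.28 at 1, against -1.31 and -1.06. Without celecoxib 1/25 for 6 h replicate 3 the member median was 0.43, with 1.00 for Sars, 0.50 for Wars and 0.63 for Yars.

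At 24 h all arrays come from 1 scan day, and no member passed between concentrations. The arrays at 1 lay on slides 2 and 3 and those at 1/25 on slide 4, so these concentrations shared no slide. Those at 1/5 lay on slides 3 and 4. For celecoxib 1 against 1/25, 8 of 9 members were above 0, from -0.16 for Eprs to 0.55 for Gars, with a member median of 0.33, against 0.03 over all genes. Gars, the glycine enzyme, read 1.23, 1.18 and 1.19 at celecoxib 1, against 1.19, 0.74 and 0.04 at 1/25. The 3 arrays at 1 lie close together, while those at 1/25 are spread and overlap them, and the difference of 0.55 ± 0.39 had a 95% interval of -0.27 to 1.37. Tars read -2.27, -2.30 and -2.18 at 1, against -3.10, -2.42 and -2.84 at 1/25, and was 1 of the 2 members wholly higher at 1, with Yars. The differences were 0.54 ± 0.36 for Tars and 0.52 ± 0.37 for Yars, where 6.54% of all genes lay wholly higher. None lay wholly lower, where 6.25% did. Here 0 of 9 members passed by limma (adjusted p = 1 for each), 0 had an unadjusted p under 0.05, while 0% of 27740 genes passed and 2.94% had such a p.

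For celecoxib 1 against 1/5 at 24 h, Wars read -0.23, -0.96 and -1.22 at 1, against -2.11, -1.50 and -1.29 at 1/5. The groups did not overlap, and the difference was 0.83 ± 0.45 with an interval of -0.11 to 1.78 (adjusted p = 0.951). Wars and Gars (0.44 ± 0.39) were the 2 members wholly higher at 1 and none was wholly lower, where 6.76% and 9.06% of all genes were. A probe that only the RefSeq table ties to Gars1 had r = 0.34 with the Gars probe over 20 arrays. Their signs were the same in 3 of 6 comparisons with untreated. At 24 h the Gars1 probe overlapped between 1 and 1/5 (-0.56 to 0.18, against -1.49 to -0.05), with means of -0.30 and -0.94. Sars overlapped between these groups, with 0.68 ± 0.33. Of the 9 members 7 were above 0, 0 passed by limma and 0 had an unadjusted p under 0.05, with 0.00361% of 27739 genes passing and 5.45% having such a p. On slide 3 alone, which holds 2 arrays of each group, 8 of the 9 differences were above 0 and the member median was 0.38, against 0.44 with all arrays. For 1/5 against 1/25 at 24 h the member median was 0.05, equal to that over all genes, and 0 of 9 members passed by limma, 0 with an unadjusted p under 0.05, while 0% of 27740 genes passed and 3.88% had such a p. Sars was the 1 member wholly lower at 1/5 (-0.59 ± 0.33) and none was wholly higher, where 6.5% and 12.4% of all genes were.

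**Figure D3:**
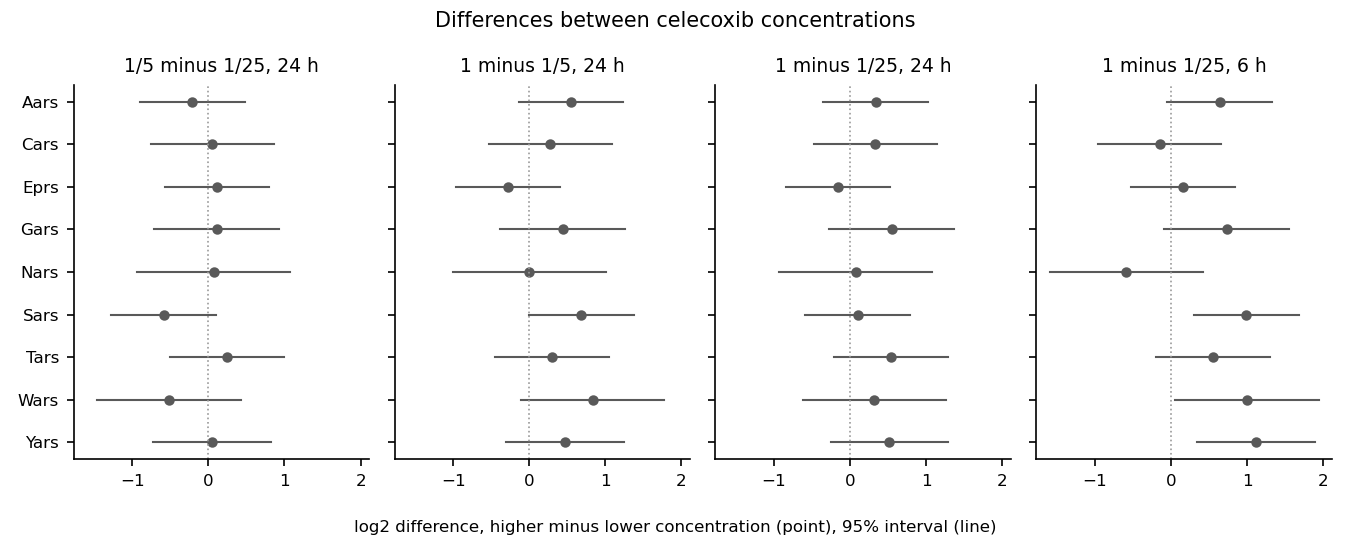
Log2 difference between celecoxib concentrations, higher minus lower (horizontal axis), for the 9 synthetases at 24 h (left 3 panels) and at 6 h (right panel). Points are limma estimates and lines are 95% intervals. At 24 h every interval includes 0, and for 1 minus 1/25 the points run from -0.16 to 0.55.

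Against untreated cultures at 24 h, 0 of 9 members passed at any concentration by limma. An unadjusted p under 0.05 was found for 1 member at 1/25 (Tars, -0.88 ± 0.40), 1 at 1/5 (Sars, -1.03 ± 0.36) and 0 at 1. Of all genes 0.288% passed at 1/25, 0.285% at 1/5 and 0.0649% at 1, and 11.3%, 14.4% and 11% had such a p. Wholly below untreated lay 2 members at 1/25, 4 at 1/5 and 0 at 1, where 19.1%, 19.3% and 17.1% of all genes did. Wholly above lay 0 at 1/25, 0 at 1/5 and 2 at 1 (Gars and Yars), where 13.9%, 21% and 11.6% did. The member medians were -0.28 at 1/25, -0.17 at 1/5 and -0.04 at 1, all of which turned positive with median scaling (0.01, 0.14 and 0.26), as did that of celecoxib 1 for 6 h (0.13, against -0.20). Median scaling also moved the median of all genes, which was 0.24 at 1/25 for 6 h with it, against -0.18 with the 75th percentile. These scalings differ by a constant per array, so differences relative to that median are equal by arithmetic and test nothing. They were -1.14 and -1.15 for Sars, and -1.64 with both for Wars. With normexp background correction they were -1.35 for Sars and -1.52 for Wars, and with quantile normalization -1.28 and -1.55. These comparisons share the untreated arrays.

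Between the times, 0 of 9 members passed by limma at any concentration. For 24 h against 6 h, unadjusted p values under 0.05 were found for 4 members at 1/25, 2 at 1/5 and 0 at 1, while 2.45%, 4.89% and 0.177% of all genes passed and 21.8%, 26.8% and 10.2% had such a p. Wholly higher after 24 h were 3 members at 1/25, 3 at 1/5 and 0 at 1, where 11%, 27.7% and 7.44% of all genes were. Wholly lower were 0, 1 (Nars) and 0, where 9.09%, 21.5% and 6.62% were. At 1/25, Wars read -0.81, -1.42 and -1.13 after 24 h, against -2.35, -1.54 and -3.44 after 6 h, which did not overlap, a difference of 1.32 ± 0.45 (adjusted p = 0.108). Without replicate 3 of the 6 h group it was 0.82 (adjusted p = 0.444). At 1/5, Eprs read 1.76, 1.56 and 1.48 after 24 h, against 0.91, 0.92 and 0.66 after 6 h. The Eprs arrays did not overlap (0.77 ± 0.32, adjusted p = 0.141), and at 1/5 the time and the scan day coincide. With scan day as a block Eprs turned to -0.30 there (0.808), and the member median for 24 h against 6 h was -0.28 at 1/5 and -0.05 at 1/25, against 0.29 and 0.31 without the block. Wars at 1/25 had 1.25 with the block (0.233). The difference of the effect of 1 against 1/25 between 24 h and 6 h passed for 0 of 9 members by limma, with 0 unadjusted p values under 0.05, while 0% of 27738 genes passed and 3.54% had such a p.

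The scan day moved with several members. Within groups, scan day 2 minus day 1 was below 0 for 8 of 9 members, with a median of -0.48, against -0.07 over all genes. By limma 5 of 9 passed, where 32.4% of 27728 genes did, 17.2% lower and 15.2% higher on day 2: Aars (-0.92 ± 0.25), Eprs (-1.07 ± 0.20), Gars (-0.97 ± 0.33) and Yars (-0.95 ± 0.30) were lower on day 2, and Nars was higher (1.67 ± 0.29, adjusted p = 0.000982). Sars (-0.30 ± 0.33) and Wars (-0.11 ± 0.48) did not pass. The estimate rests on celecoxib 1 and 1/25 for 6 h, the only groups with arrays of both days.

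Nars, the asparagine enzyme, has a brighter probe whose values differed between the scan days, which shared no slide. Celecoxib 1/5 for 6 h and untreated cultures differ in treatment as well as in day and slide, and these cannot be told apart there. The brighter Nars probe, whose GC content is 25%, read 1.63, 1.89 and 1.91 at celecoxib 1/5 for 6 h, against 0.13 and 0.46 in untreated cultures. At celecoxib 1 for 6 h it read 0.93 and -0.19 on day 1 and 2.09 on day 2. Its other probe, with 45% GC, read -2.41, -2.46 and -2.08 at 1/5 for 6 h, against -2.14 and -2.96 in untreated cultures. So the brighter probe was 1.51 ± 0.53 above untreated at 1/5 for 6 h (adjusted p = 0.0928) and the other 0.23 ± 0.54 (0.828 over all probes), with r = -0.13 between them over 20 arrays.

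Eprs has a similar pattern across a pair of probes, one of which only the RefSeq table ties to it. The probe named Eprs, with 55% GC, read 0.91, 0.92 and 0.66 at celecoxib 1/5 for 6 h, against 1.58 and 1.48 in untreated cultures. The probe tied to Eprs1 by its accession, with 25% GC, read 2.00, 2.01 and 2.12, against 0.28 and 0.21. They had opposite signs in all 6 comparisons with untreated, with r = -0.81 over 20 arrays. Over all kept probes, those under 30% GC (1189 probes) had a median day difference of 1.44, with 85.1% above 0. Those of 40% to 45% GC (6266 probes) had a median of -0.28, those of 45% to 50% (7356 probes) -0.21 and those of 55% to 60% (3345 probes) 0.14. The probe named Eprs belongs to the last of these classes, but its own day difference was -1.07 ± 0.20. Of the members' probes with 45% GC, those of Aars, Gars and Yars had -0.92, -0.97 and -0.95, and the Wars probe -0.11. The other Nars and Wars probes, also with 45% GC, had 0.27 and 0.59. The correlation of GC content with the day difference was r = -0.16 over 31725 probes, which share the arrays. Whether GC content gives the day difference was not tested.

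**Figure D4:**
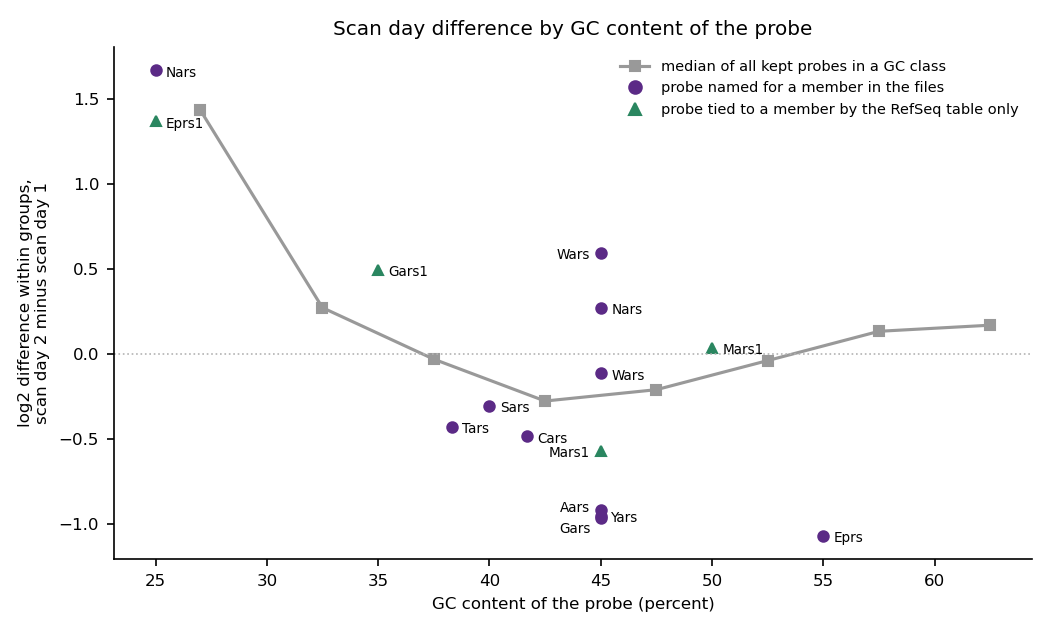
Log2 difference of scan day 2 minus day 1 within groups (vertical axis) against the GC content of the probe in percent (horizontal axis). Circles are the 11 probes named for a member, triangles 4 probes that the RefSeq table ties to a member, and grey squares the medians of all kept probes by GC class. The probes of 25% GC stand at 1.67 and 1.37, with the lowest GC class at 1.44.

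**Figure D5:**
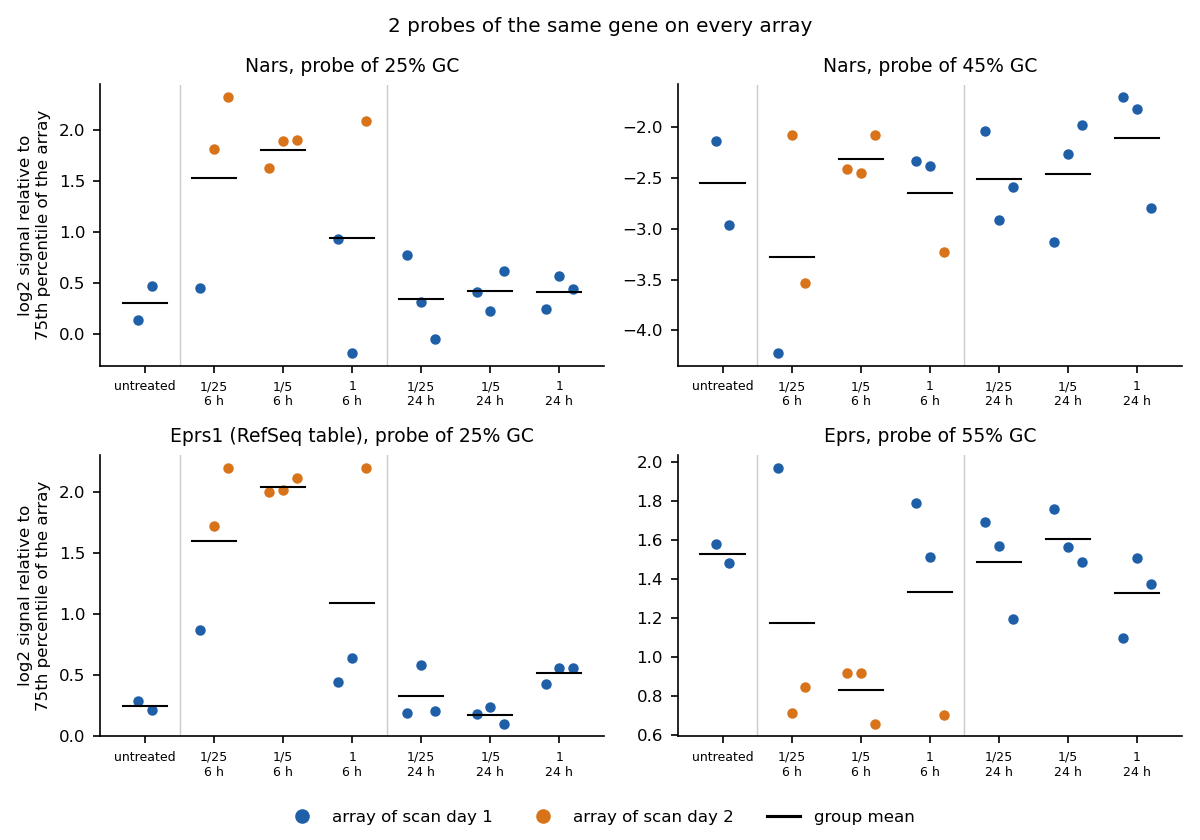
Log2 signal relative to the 75th percentile of the array for both Nars probes (top) and for the Eprs probe and the probe tied to Eprs1 (bottom), by group. Each point is an array, coloured by scan day, and lines are group means. In the left panels, of 25% GC, the arrays of scan day 2 lie above those of day 1 at every concentration that has both. In the lower right panel they lie below them.

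Mars, the methionine enzyme, has no probe under the rule. The RefSeq table ties 2 probes to it by accession. The brighter of them read 1.54, 1.07 and 1.17 at celecoxib 1/25 for 6 h, against 1.33 and 1.60 in untreated cultures, a difference of -0.21 ± 0.33 (adjusted p = 0.732). Those groups overlapped. At 24 h its difference of 1 against 1/25 was -0.28 ± 0.30 (adjusted p = 1). The dimmer Mars1 probe differed from it, with r = 0.13 over 20 arrays and the same sign in 2 of 6 comparisons with untreated. It read -1.25, -0.82 and -2.08 at celecoxib 1 for 6 h, against -1.87 and -2.997 in untreated cultures, and the groups overlapped. That difference was 1.05 ± 0.47 (unadjusted p = 0.0399, adjusted p = 0.255), where the brighter probe had -0.24 ± 0.33. For 1 against 1/25 the dimmer probe had 1.12 ± 0.42 at 6 h (unadjusted p = 0.0166, adjusted p = 0.762) and 0.16 ± 0.42 at 24 h (adjusted p = 1).

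The members moved together only in part. Over 20 arrays the 36 pairs of members had a median r of 0.37, with 27 above 0. Every pair of Nars with another member was below 0 there, from -0.76 with Aars to -0.33 with Cars. The only other pair below 0 was Cars with Wars (-0.11). Nars stands on its probe of 25% GC, which was higher on scan day 2 (1.67 ± 0.29). Over the 9 arrays of 24 h, all of scan day 1, the median r was 0.22, with 24 above 0, and the lowest pair was Eprs with Wars (-0.67). The genes most like the mean of the members' standardised values, among 8179 genes, were Anapc15, Mfn1, Dctn2, Slc25a17 and Phkg2 over 20 arrays, with r of 0.89 to 0.90. Over the 9 arrays of 24 h they were Lcat, Sft2d1, Kiaa1958, Mcfd2 and Cse1l, with r of 0.92 to 0.96. These points share arrays, slides and, for the first 5, the scan day.

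Related genes were read from lists chosen by function. For celecoxib 1 against 1/25 at 24 h, 0 of 10 other cytosolic synthetases, 0 of 15 mitochondrial synthetases, 0 of 3 complex scaffold genes, 0 of 19 ATF4 pathway regulators, 0 of 18 genes of amino acid synthesis and transport and 0 of 10 tRNA and elongation factors passed by limma, with list medians of 0.07, -0.05, -0.09, 0.27, 0.22 and 0.01. The other cytosolic synthetases with the smallest p were Tars3 (0.60 ± 0.47), Farsb (0.55 ± 0.47), Qars1 (0.39 ± 0.37) and Lars1 (-0.26 ± 0.27). The scaffold genes were Aimp2 (-0.53 ± 0.31), Eef1e1 (0.19 ± 0.34) and Aimp1 (-0.09 ± 0.30), which hold the multi-synthetase complex together. The mitochondrial enzymes were Lars2 (-0.77 ± 0.37), Yars2 (0.42 ± 0.25), Nars2 (-1.14 ± 0.75) and Hars2 (-0.69 ± 0.46). Of the translation factors, Eef1d (-0.20 ± 0.35), Eef1g (0.15 ± 0.30) and Eef1a1 (0.08 ± 0.28) serve elongation, and Elac2 (-0.08 ± 0.28) trims tRNA precursors.

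Of the ATF4 pathway regulators 15 of 19 were above 0 for celecoxib 1 against 1/25 at 24 h, and of the amino acid genes 12 of 18, where 53.7% of all genes were. For 1 against 1/5 at 24 h it was 10 of 19 (median 0.04) and 14 of 18 (median 0.29), where 46.0% of all genes were. The values below are for 1 against 1/25 at 24 h. Apart from Atf4 and Ddit3, the genes were picked for the smallest p in that same comparison. Slc7a5, a transporter of large neutral amino acids, had 1.37 ± 0.28 (adjusted p = 0.801) and its partner Slc3a2 0.59 ± 0.35, while Slc6a9, a glycine transporter, had -0.64 ± 0.32 and Aldh18a1, a proline synthesis enzyme, 0.48 ± 0.31 (adjusted p = 1 for these 3). Atf3, a stress transcription factor, had 1.04 ± 0.36, Ppp1r15b 1.06 ± 0.47, Ppp1r15a 0.50 ± 0.33 and Cebpg 0.50 ± 0.37 (adjusted p = 1 for each). Atf4 itself had 0.08 ± 0.27, on a probe saturated on 18 of 20 arrays, and Ddit3, which encodes CHOP, had 0.45 ± 0.35 (adjusted p = 1 for both).

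Against untreated, Slc7a5 had -0.39 ± 0.31 after 24 h at 1 (limma adjusted p = 0.738), on arrays of scan day 1 throughout. It was lower after 24 h at 1/25 (-1.75 ± 0.31, adjusted p = 0.0257) and at 1/5 (-1.86 ± 0.31, adjusted p = 0.0197), also on scan day 1. Without untreated replicate 1 the differences were -1.22 and -1.33 (adjusted p = 0.347 and 0.243). The untreated arrays lay on slide 1 and the 24 h arrays at 1/25 and 1/5 on slides 3 and 4. Slc7a5 was not checked with slide as a block. With slide as a random block, 3 of all genes passed at 1/25 and 4 at 1/5 for 24 h, against 80 and 79. Slc7a5 was also lower after 24 h than after 6 h, a comparison without the untreated arrays, in which the times shared no slide either. At 1/25 the difference was -1.54 ± 0.28 (adjusted p = 0.0134), and -1.56 with scan day as a block (0.0258). At 1/5 it was -1.91 ± 0.28 (adjusted p = 0.0044), and -1.94 with the block (0.0888). In those comparisons 2 of 75 list genes passed at 1/25 (2.67%) and 3 of 75 at 1/5 (4%), where 2.45% and 4.89% of all genes did.

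After 6 h, 4 of 75 list genes passed against untreated at 1/25 (5.33%, where 5.99% of all genes did): Slc7a11, the cystine transporter (-1.88 ± 0.44), Qars1, the cytosolic enzyme that charges glutamine tRNA (-1.79 ± 0.41), and Lars2 (-1.63 ± 0.41) were lower, and Yars2 (0.99 ± 0.28) was higher, the last pair being mitochondrial synthetases. These 4 passed at 1/5 for 6 h too, with Cebpg, Mars2 and Psph higher and Slc6a9 lower, 8 of 75 in all (10.7%, where 6.55% of all genes did). Slc7a11, Mars2 and Psph are named after their values were seen. Of the 4 at 1/25, 1 passed with scan day as a block (Slc7a11) and 0 without untreated replicate 1, and of the 8 at 1/5, 0 passed under either. With scan day as a block at 1/5, Slc7a11 had -1.98, against -2.22 without it, Slc6a9 -1.53, against -1.64, and Lars2 -1.46, against -1.60. The block moved others much further: Mars2 had 0.12, against 3.74 without it, Psph -0.02, against 2.48, and Cebpg 0.21, against 1.42. Between these lay Qars1 (-0.81, against -1.50) and Yars2 (0.55, against 1.01).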

How the data were processed

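RNA of 20 samples was measured on single-colour Agilent arrays. The deposited scanner files hold spot intensity on a linear scale, which per the file headers came from Feature Extraction 9.5.3.1 (Agilent) and had the background subtracted, with probe positions on build rn3. The deposited value table of the authors holds a linear ratio, which over at least 99.2% of probes was within 0.05 log2 of the differences between scanner values. Its column medians ran from 0.826 to 1.27 and 15 of 820240 values were at its floor.

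Processed signals were divided by their array's 75th percentile and put on the log2 scale. Outlier spots were left out and spots of a probe averaged. A probe was kept if some group had it well above background on each of its arrays (31739), and the brightest stood for its gene (27742 genes). Names came from the RefSeq accession (10735 probes), a current symbol or synonym (9231), another accession (66) or the file (20980). All 20 arrays were fitted with 7 group means in limma 3.58.1 (R 4.3.3), with 13 residual degrees of freedom (17.1 after moderation), two-sided tests, Benjamini-Hochberg adjustment over all genes and a threshold of 0.05, in 14 comparisons. Blocks used statmod 1.5.0. The fit was tested on simulated data. The number of arrays limits the precision.

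The members and lists were chosen with earlier results of these data known. All 10 members were to be named, of each list up to 4 genes with the smallest unadjusted p for celecoxib 1 against 1/25 at 24 h, Atf4 and Ddit3, and the 5 genes most like the members over 20 arrays and over 9. List genes that passed are named too. The checks of list genes with scan day as a block and without untreated replicate 1, and the within-slide, scan day 2 and stood-apart alternatives, were chosen after seeing the data. The alternatives were normexp with an offset of 50, quantile and median scaling, the authors' table, the probe filter, the rule for probes, saturated spots, slide, scan day, replicate number, the samples fitted and each array left out. A few sequences are not reported here.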

Additional observations from a re-analysis of the deposited data

Results flagged for a closer look

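The probe that only the RefSeq table ties to Eprs1 lies outside the rule and was higher at celecoxib 1/5 for 6 h than in untreated cultures, by 1.8 on the log2 scale (adjusted p = 0.0274), while the probe named Eprs was lower by -0.70. All 3 arrays of that group were scanned on day 2 and both untreated arrays on day 1, and the day difference of this probe within groups was 1.37 ± 0.20. Its GC content is 25%, against 55% for the probe named Eprs.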

How the results depend on the processing

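At celecoxib 1/5 for 6 h against untreated, where Sars passed, 0 of 9 members passed with median scaling, the authors' table, slide as a random or a fixed block, scan day as a block, or without both arrays that stood apart (chosen after seeing the data), and 0 to 1 with an array left out: 0 without untreated replicate 1 or any one of the 3 celecoxib arrays, and 1 without untreated replicate 2. With only the groups compared the 1 member that passed was Nars, not Sars. At 1/25 for 6 h, where Sars and Wars passed, 4 passed with normexp (Aars, Sars, Tars and Wars), 1 with median scaling or the authors' table (Wars) and 1 with the mean of a gene's probes (Sars). There 0 passed with no filter on dim probes, slide as a random block, scan day as a block, scan day 1 only, only the groups compared or without both arrays that stood apart, and 0 to 4 with an array left out: 0 without untreated replicate 1 or celecoxib 1/25 for 6 h replicate 3, and 4 without its replicate 1 (Aars, Nars, Sars and Wars). For 24 h against 6 h, 3 passed at 1/5 with only the groups compared (Cars, Eprs and Nars), and 0 to 2 at 1/25 with an array left out: 2 without celecoxib 1/25 for 6 h replicate 1 (Aars and Nars) and 1 without its replicate 2 (Wars). The cause of these changes was not tested. In the other 10 comparisons 0 members passed under each alternative run.

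Same-numbered samples had a mean correlation of deviations of -0.004 (57 pairs), and different numbers 0.002 (114 pairs). Deviations within a group cancel, so these means are tied to each other. By pair of groups, the same-numbered mean ran from -0.31 (untreated with 1/25 for 6 h) to 0.24 (1 with 1/25 for 6 h). Scan day and slide also differ between replicates of a group, so whether replicate numbers pair the samples cannot be told. With the replicate block 0 members passed at 1/5 for 6 h and 0 at 1/25 for 6 h, and over all genes the count at 1/5 moved to 676 with the block, against 1817 without it.

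Over all genes, 3 passed at 1/5 and 15 at 1/25 for 6 h against untreated with slide as a random block, 317 and 3211 with scan day as a block, and 21 and 9 without both arrays that stood apart, against 1817 and 1662. Slide as a fixed block gave a value in 6 comparisons and scan day 1 only in 12. Probes near background and the 2 untreated arrays limit what can be seen.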
